A study of Mus musculus with 2 samples.

Results

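The alpha and beta globin loci of the mouse were examined for CTCF binding in 2 cell types that do not make haemoglobin. The loci were taken as windows of the mm9 genome, chromosome 11 from 32.05 to 32.35 Mb (300 kb) for the alpha globin genes and chromosome 7 from 110.8 to 111.25 Mb (450 kb) for the beta globin genes with flanking olfactory receptor genes. A peak belonged to a window when its midpoint lay inside it. By this rule the windows held 17 of the 44424 peaks of the embryonic stem (ES) cell list, 13 in the alpha and 4 in the beta window. They held 20 of the 53736 peaks of the mouse embryonic fibroblast (MEF) list, 15 in the alpha and 5 in the beta window.

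CTCF was mapped by chromatin immunoprecipitation and sequencing, with 1 library per cell type and the same catalogue antibody for both. The ES cells had the genetic background Bl3.10 and C57BL, and the MEFs had C57BL6, so the effects of cell type, genetic background and library cannot be told apart. Neither group carried a labelled treatment or engineered allele, and both were grown in DMEM with fetal calf serum. Read depth is unknown, there were no replicates, and every interval covers counting error only. The lists hold no expression values, so the labelled cell types were not checked against marker genes.

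CTCF is a zinc-finger protein that binds DNA at insulators and at the bases of chromatin loops. The globin genes encode the chains of haemoglobin and are expressed in red blood cell precursors, where distant enhancers drive them. The alpha genes lie among broadly expressed genes, and their main enhancers lie upstream, several of them within introns of Nprl3. The beta genes are driven by a locus control region and lie inside an array of olfactory receptor genes, which are read in sensory neurons of the nose. In erythroid cells CTCF sites are known on either side of both loci.

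Gene neighbourhoods differed sharply between the loci. In the RefSeq gene table (assembly GRCm38.p6, used only for names and gene order) the protein-coding order of the alpha cluster was Hba-x, Hba-a1, Hbq1b, Hba-a2 and Hbq1a. Hba-x encodes the embryonic zeta chain, Hba-a1 and Hba-a2 the adult alpha chain, and the Hbq1 genes theta-like chains. The nearest coding genes were Nprl3, Mpg, Rhbdf1, Snrnp25 and Il9r on one side and Sh3pxd2b and Ubtd2 on the other. Mpg encodes a DNA repair glycosylase, Snrnp25 a spliceosome protein and Il9r a cytokine receptor. None of the 10 nearest coding genes on either side of the alpha cluster was an olfactory receptor. The order of the beta cluster was Hbb-bt, Hbb-bs, Hbb-bh2, Hbb-bh1 and Hbb-y, of which Hbb-y and Hbb-bh1 encode embryonic chains and Hbb-bs and Hbb-bt adult ones. All 10 of the nearest coding genes on each side were olfactory receptors, starting with Olfr67 and Olfr66. Hbb-b1 and Hbb-b2, the adult beta genes of another haplotype, are listed in that table outside this gene order. An mm9 annotation was not used here, so peak positions are given from the window start and not relative to single genes.

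The promoters of gene copies were compared within each cluster, and the coding sequences were not. RefSeq promoter sequences (GRCm38.p6, 250 bases before to 50 after the start) matched 9 of the 12 globin genes, without Hbb-bh1, Hbb-b1 and Hbb-b2. The promoters of the adult genes Hba-a1 and Hba-a2 were identical over 297 aligned bases. The 250 bases before each start (plus strand) are shown because reads from such copies carry no difference that would place them. Capitals mark the bases outside the identical run of 247 bases.
Hba-a1: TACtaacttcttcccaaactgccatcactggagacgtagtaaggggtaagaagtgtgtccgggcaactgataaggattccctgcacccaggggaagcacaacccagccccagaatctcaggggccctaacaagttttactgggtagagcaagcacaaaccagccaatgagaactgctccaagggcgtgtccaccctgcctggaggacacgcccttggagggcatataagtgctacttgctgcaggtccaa
Hba-a2: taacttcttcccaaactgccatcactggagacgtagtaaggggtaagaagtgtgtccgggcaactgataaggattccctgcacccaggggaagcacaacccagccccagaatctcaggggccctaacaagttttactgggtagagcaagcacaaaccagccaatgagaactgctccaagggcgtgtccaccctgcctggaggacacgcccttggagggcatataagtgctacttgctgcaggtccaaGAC
The runs are offset by the 3 bases in capitals, and no base differs within them. The treatment of reads that match several places is not stated in the labels. Its effect on whether a peak could be called at the Hba genes was not tested.

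The Hbq1 promoters are shown because they held a sequence close to the CTCF consensus. They were 95.3% identical over 300 bases, with 14 mismatches. Capitals mark the match to AGGGGGCGC, the core of that consensus, which lies on the reverse strand of both genes. The genes lie on the plus strand.
Hbq1b: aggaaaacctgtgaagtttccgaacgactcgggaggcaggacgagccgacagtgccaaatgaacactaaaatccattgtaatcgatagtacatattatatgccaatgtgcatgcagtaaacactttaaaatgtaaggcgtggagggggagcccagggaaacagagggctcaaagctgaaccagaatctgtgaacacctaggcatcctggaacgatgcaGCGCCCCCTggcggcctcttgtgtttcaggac
Hbq1a: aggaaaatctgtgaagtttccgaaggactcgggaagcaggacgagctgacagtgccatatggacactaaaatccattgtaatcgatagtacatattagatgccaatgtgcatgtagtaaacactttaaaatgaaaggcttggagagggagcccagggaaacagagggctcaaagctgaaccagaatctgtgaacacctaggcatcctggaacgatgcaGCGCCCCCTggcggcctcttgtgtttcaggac
Both strands of every promoter were searched with AGGGGGCGC and with the looser AGNNGGC, which overlaps it, and both were chosen after the sequences had been seen. AGGGGGCGC was found in 409 of 32851 RefSeq promoters (1.25%). Among the 9 globin promoters it was found in Hbq1a and Hbq1b, at positions -32 to -24 relative to the start. AGNNGGC was found in 59.8% of promoters, too often to set the globin genes apart, and in neither Hba-a1 nor Hba-a2. A match is a description and not a mapped site, and the peaks were not placed on these genes.

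The promoters of the adult beta genes were less alike than those of the adult alpha genes. Those of Hbb-bs and Hbb-bt were 74.7% identical over 293 aligned bases, with 74 mismatches, and the longest identical run was 14 bases. They are printed for contrast with the alpha pair, 250 bases before the start on the minus strand, with that run in capitals.
Hbb-bs: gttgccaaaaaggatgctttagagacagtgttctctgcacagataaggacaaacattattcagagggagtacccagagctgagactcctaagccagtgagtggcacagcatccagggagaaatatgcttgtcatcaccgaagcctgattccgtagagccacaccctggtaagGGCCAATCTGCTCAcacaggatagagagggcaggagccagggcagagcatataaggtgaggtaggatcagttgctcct
Hbb-bt: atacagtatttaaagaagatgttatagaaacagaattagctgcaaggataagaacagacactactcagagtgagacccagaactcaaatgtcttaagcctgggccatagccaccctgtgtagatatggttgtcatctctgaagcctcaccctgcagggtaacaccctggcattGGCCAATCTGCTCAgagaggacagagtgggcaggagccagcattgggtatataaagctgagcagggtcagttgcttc
AGGGGGCGC was found in neither, and AGNNGGC was found once in each.

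The alpha window was rich in CTCF peaks in both cell types and the beta window was poor. The alpha window held 43.3 ES peaks and 50 MEF peaks per Mb, and the beta window 8.89 and 11.1. Within a list the alpha density was 4.88 times the beta density in ES cells (95% exact binomial interval 1.51 to 20.5) and 4.50 times in MEFs (1.55 to 15.8). Both intervals lie above 1, and both are wide, with few peaks in the beta window. Against the central 300 kb of the beta window, which held 3 ES and 2 MEF peaks, the ratio was 4.33 (1.19 to 23.7) in ES cells and 7.50 (1.74 to 67.6) in MEFs. With only the higher-scoring 50% of each list the MEF interval included 1 (0.805 to 45.6). The autosomes as a whole carried 17.6 ES and 21.1 MEF peaks per Mb, between the values of the loci.

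Set among all autosomal tiles of the same length, the alpha window stood near the top and the beta window below the middle. Of 8229 tiles of 300 kb, 89.9% held fewer ES peaks and 91.6% fewer MEF peaks than the alpha window, where the median tile held 4 and 5. Of 5481 tiles of 450 kb, 36.3% held fewer ES peaks and 29.4% fewer MEF peaks than the beta window, where the median tile held 6 and 8. The beta count was therefore low but not unusual for a stretch of that length.

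The surroundings repeated the order of the loci. The 2 Mb around the alpha window (1 Mb on each side) held 44 ES and 52 MEF peaks, or 22.0 and 26.0 per Mb. The 2 Mb around the beta window held 12 ES and 14 MEF peaks, or 6 and 7 per Mb. The beta flanks were uneven, with 2 ES and 10 MEF peaks in the 1 Mb before the window and 10 ES and 4 MEF peaks in the 1 Mb after it. The beta window, at 8.89 and 11.1 per Mb, was about as sparse as the fuller flank of either list. The alpha flanks held 18 ES and 17 MEF peaks before the window and 26 and 35 after it, each below the density of the window. Chromosome 11 carried 28.0 ES and 30.7 MEF peaks per Mb and chromosome 7 carried 19.0 and 21.2, so the gap between the loci was wider than that between their chromosomes.

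**Figure D1:**
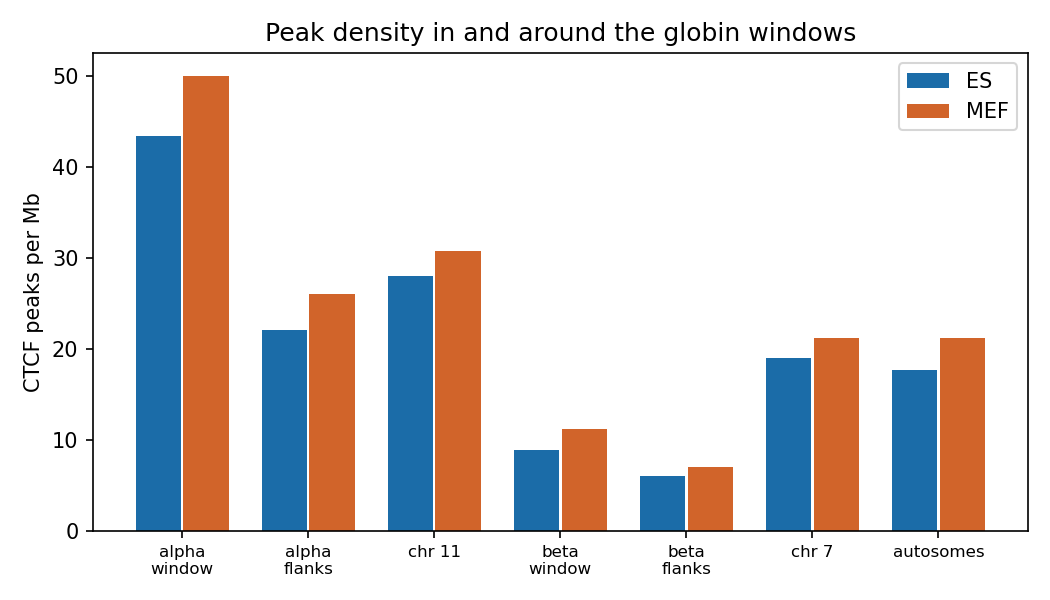
Bars give CTCF peaks per Mb in the ES and MEF lists for each globin window, the 2 Mb around it, its chromosome and all autosomes. The alpha bars reach 43.3 and 50 peaks per Mb and the beta bars 8.89 and 11.1, with the autosomes at 17.6 and 21.1.

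With the peaks of both lists merged, 6 of 21 alpha sites (28.6%) were called in both cell types, and of 8 beta sites none. The share over all merged sites was not computed. The list values below count peaks of 1 list, so 28.6% cannot be set against them. Peaks of the 2 lists with at least 1 bp in common were counted as shared. In the alpha window 7 of 13 ES peaks were shared (53.8%, 95% Wilson interval 29.1 to 76.8), against 26.1% of the whole ES list. Of the MEF peaks there, 6 of 15 were shared (40.0%, 19.8 to 64.3), against 21.6% of the whole MEF list. The ES interval lies above the list value and the MEF interval includes it. On chromosome 11 as a whole 29.4% of ES and 26.5% of MEF peaks were shared, and the intervals include these values. With overlapping peaks of 1 list merged into single sites, 6 of 12 ES sites were shared (50%, 25.4 to 74.6), and the interval reaches the list value of 25.4%. At the list share, 3.39 of 13 ES peaks and 3.24 of 15 MEF peaks would be shared.

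In the beta window 0 of 4 ES peaks and 0 of 5 MEF peaks were shared. The list share corresponds to 1.04 ES and 1.08 MEF peaks there. Counts of 0 from so few peaks allow shares of up to 49.0% in ES cells and 43.4% in MEFs (95% Wilson intervals), which overlap those at the alpha locus. So few peaks cannot show whether sharing at the beta locus differed from the rest of the genome. Reads were not examined, so binding below the calling threshold of either list cannot be seen.

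Sharing was also counted in the flanks. Around the alpha window 6 of 44 ES peaks were shared (13.6%, 6.40 to 26.7). The MEF list had 6 of 52 there (11.5%, 5.40 to 23.0). The MEF intervals of the alpha window and its flanks overlap. The ES intervals are narrowly separate (29.1 against 26.7), but they overlap when overlapping peaks are merged, where the window interval starts at 25.4, and with a reciprocal overlap of 50%, where it starts at 23.2. A difference in sharing between the alpha window and its flanks is therefore not firm. Around the beta window 4 of 12 ES peaks had a partner (33.3%, 13.8 to 60.9), as did 3 of 14 MEF peaks (21.4%, 7.57 to 47.6). These intervals overlap those of the beta window.

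**Figure D2:**
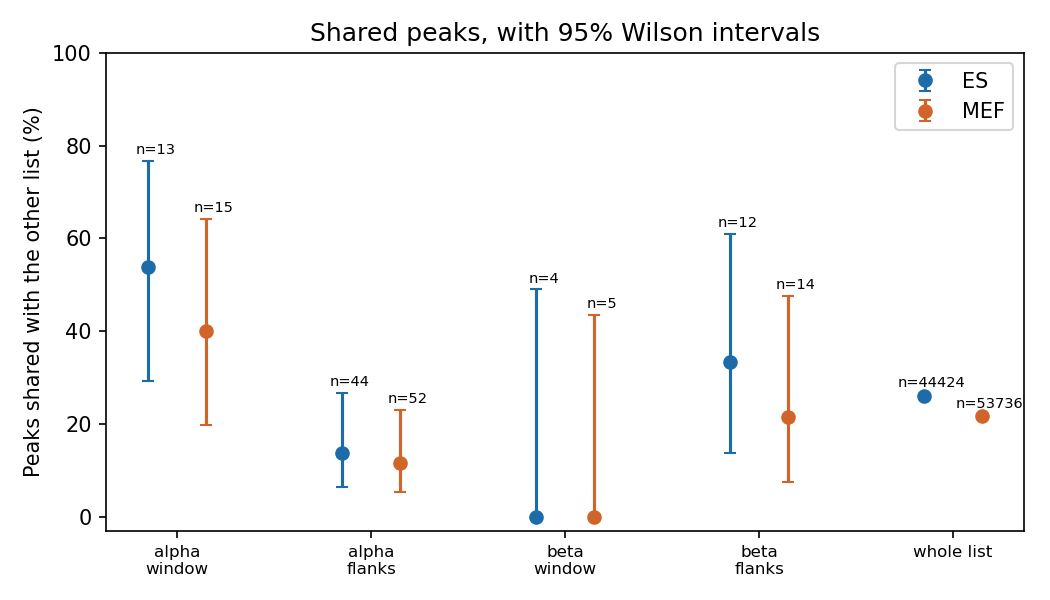
Points give the percentage of peaks with a partner (1 bp or more in common) in the other list, for each window, the 2 Mb around it and the whole list, and bars are 95% Wilson intervals. The alpha window lies at 53.8% (ES) and 40.0% (MEF), its flanks at 13.6% and 11.5%, and the beta window at 0 in both lists.

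The numbers of ES and MEF peaks did not differ beyond counting error at either locus. There were 1.15 MEF peaks per ES peak in the alpha window (0.512 to 2.63) and 1.25 in the beta window (0.269 to 6.30), against 1.21 for the whole lists. In the full lists the loci differed in peak density beyond counting error, with peaks taken as independent. With only the higher-scoring 50% of each list this did not hold, as the MEF interval of the density ratio was 0.805 to 45.6. No difference in the balance between cell types was detectable with so few peaks.

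Overlapping peaks of both lists formed 21 sites in the alpha window, of which 6 were called in both cell types, 6 in ES cells only and 9 in MEFs only. In the beta window they formed 8 sites, 3 in ES cells only and 5 in MEFs only. The split over all merged sites of both lists was not computed, so these counts only describe the windows. The median gap between neighbouring sites was 6.33 kb at the alpha locus and 39.5 kb at the beta locus.

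**Figure D3:**
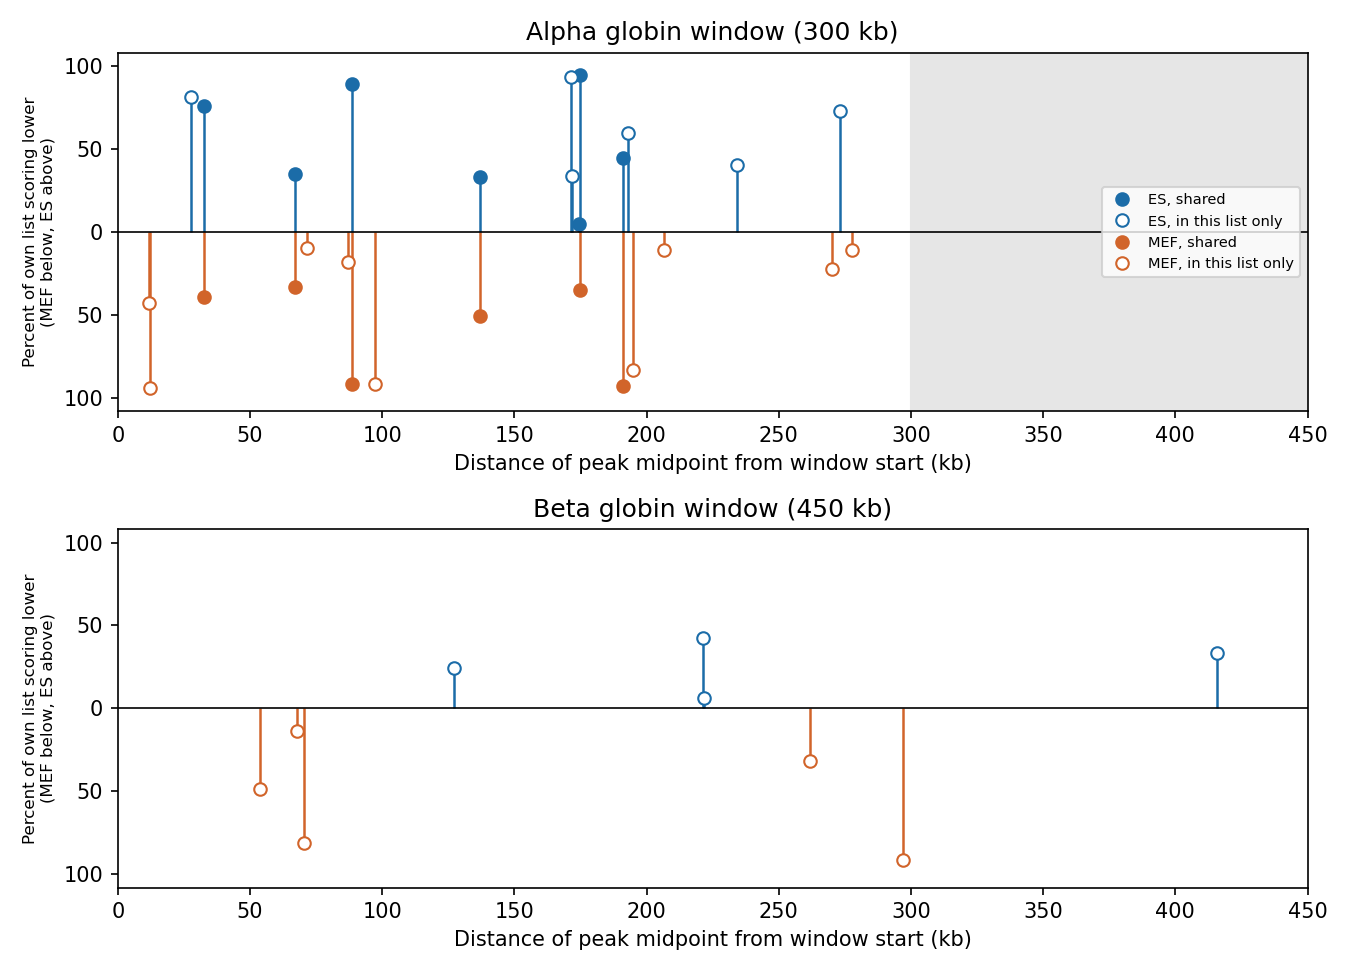
Each stem is a CTCF peak, placed by the distance of its midpoint from the window start, with its height the percentage of its own list that scored lower (ES upwards, MEF downwards) and filled circles for shared peaks. The 6 shared sites lie in the first 200 kb of the alpha window, with 11 of 13 ES and 12 of 15 MEF peaks, and the beta window has open circles only.

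All 6 shared alpha sites lay in the first 200 kb of the window, which also held most of its peaks, 11 of 13 in ES cells and 12 of 15 in MEFs. Scores are undefined in the sources used here, so each peak is given by its rank and by the percentage of its own list that scored lower, called its score percentile. The first shared site, 32.6 kb from the window start, was chr11:32082446-32082844 in ES cells (score 102, rank 10375, percentile 76.0) and chr11:32082518-32082916 in MEFs (score 43, rank 31739, percentile 39.0). It stood in the upper part of the ES list and the lower part of the MEF list. The second, 67.1 kb from the start, was chr11:32116907-32117305 in ES cells (score 57, rank 28282, percentile 35.2) and chr11:32116873-32117271 in MEFs (score 40, rank 34865, percentile 33.3). It ranked below the middle of both lists.

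The third shared site, 88.7 kb from the start, was chr11:32138483-32138881 in ES cells (score 138, rank 4520, percentile 89.6) and chr11:32138453-32138851 in MEFs (score 106, rank 4292, percentile 91.8). This was the one shared alpha site far above the middle of both lists. The fourth, 137 kb from the start, was chr11:32186747-32187145 in ES cells (score 55, rank 29255, percentile 33.1) and chr11:32186763-32187161 in MEFs (score 49, rank 25741, percentile 50.3). It was also the most isolated of the shared sites, with 39.3 kb free of peaks before it, the widest gap of the window, and 34.0 kb after it. The peak on the far side of the widest gap was the MEF-only peak chr11:32147092-32147490.

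The fifth shared site, 175 kb from the start, was the one place where peaks of 1 list overlapped each other at the alpha locus. ES cells had chr11:32224378-32224776 (score 22, rank 42085, percentile 4.79) and chr11:32224623-32225021 (score 168, rank 2371, percentile 94.6), which started 245 bp apart. The second of these was the highest-ranked ES peak of the window. Both overlapped the single MEF peak chr11:32224654-32225052 (score 41, rank 33863, percentile 35.1), so this site adds 2 peaks to the ES count of shared peaks and 1 to the MEF count.

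The sixth, 191 kb from the start, was chr11:32241073-32241471 in ES cells (score 66, rank 23980, percentile 44.95) and chr11:32241062-32241460 in MEFs (score 111, rank 3737, percentile 92.9). It was the reverse of the fifth, high in the MEF list and near the middle of the ES list. At the 6 shared sites each MEF peak lay 11 to 72 bp from its nearest ES peak (median 30.5 bp). The other ES peak of the fifth site lay 276 bp from the MEF peak. Shared peaks overlap by definition, so offsets below the peak width were fixed in advance. Offsets over all shared peaks of the lists were not computed, so these values only describe the 6 sites.

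Neither list ranked the shared sites higher throughout. The percentile was higher in ES cells at 3 sites and higher in MEFs at 3. In ES cells the 7 shared peaks of the alpha window had a median percentile of 44.95 (4.79 to 94.6) and the 6 ES-only peaks 66.5 (34.1 to 93.4), where the whole ES list had 59.2 and 46.0. The fifth site enters that median with both of its ES peaks. With overlapping peaks merged, a setting added after the values were seen, the 6 shared ES sites had a median of 60.2 and the 6 ES-only sites 66.2, so no order of the classes can be read from these ranks. In MEFs the 6 shared peaks had a median percentile of 44.7 (33.3 to 92.9) and the 9 MEF-only peaks 22.5 (9.74 to 94.1). The whole MEF list had 70.9 and 44.8. The MEF ranges overlap, so no order of the classes can be read there either. With only the higher-scoring 50% of each list kept, 1 of 7 ES peaks (14.3%) and 1 of 6 MEF peaks (16.7%) of the window had a partner, against 22.1% and 18.3% over the lists thinned in the same way. Of the 6 shared sites, 5 ranked below the middle of at least 1 list. Over the whole lists 11595 ES peaks were shared, and 4916 with only the higher-scoring 50% of each list kept. Most shared peaks were thus lost there too, so this is not particular to the window.

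**Figure D4:**
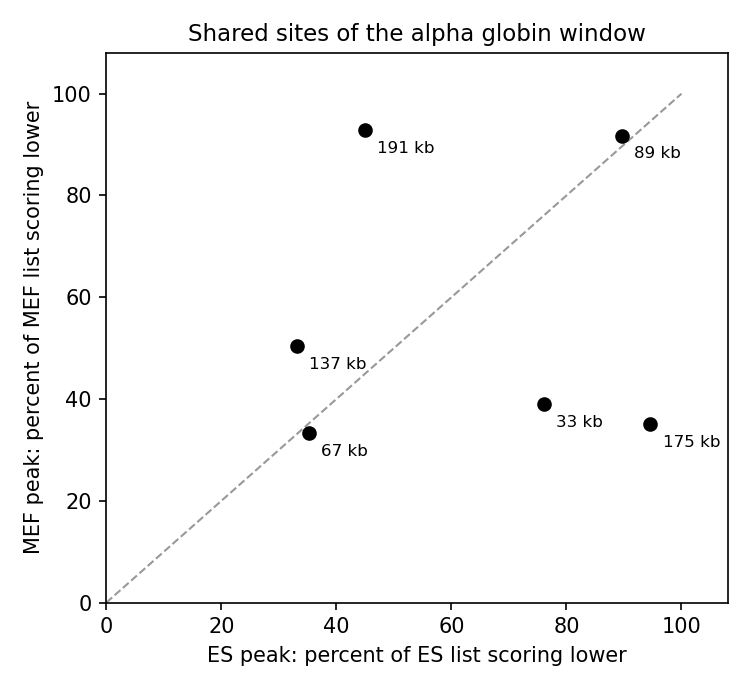
Each point is a shared site of the alpha window, labelled by its distance from the window start, with the score percentile of its ES peak on the x axis and of its MEF peak on the y axis (for the site at 175 kb, the nearer of 2 ES peaks). The site at 88.7 kb is high in both lists, those at 32.6 and 175 kb are higher in ES cells, and that at 191 kb is higher in MEFs.

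In ES cells alone 6 alpha peaks were called. Distances between single peaks are given from start to start, and gaps free of peaks from edge to edge. The highest-ranked was chr11:32221126-32221524 (score 159, rank 2877, percentile 93.4), 171 kb from the start, with a second ES-only peak 583 bp further on at chr11:32221709-32222107 (score 56, percentile 34.1). Both lay within 3.53 kb of the MEF peak of the fifth shared site. The first ES peak of the window, chr11:32077593-32077991 (score 113, percentile 81.7), lay 4.93 kb from the MEF peak of the first shared site. The peak chr11:32242705-32243103 (score 81, percentile 60.1) lay 1.64 kb from the MEF peak of the sixth. The last ES peak, chr11:32322849-32323247 (score 97, percentile 72.9), lay 2998 bp from a MEF-only peak. The remaining one, chr11:32283925-32284323 (score 62, percentile 40.5), stood alone, 27.3 kb from the nearest MEF peak.

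MEF-only alpha sites numbered 9 and included the highest-ranked MEF peak of the window. This was chr11:32062161-32062559 (score 119, rank 3070, percentile 94.1), 12.4 kb from the start. The first MEF peak, chr11:32061714-32062112 (score 45, percentile 43.0), lay 447 bp before it, and the nearest ES peak started 15.4 kb beyond the second. MEF-only peaks were also called at chr11:32147092-32147490 (score 105, percentile 91.6) and chr11:32244594-32244992 (score 81, percentile 83.1). The other 5 had percentiles from 9.74 to 22.5, and the last peak of the window, chr11:32327597-32327995 (score 26, percentile 10.9), was one of them.

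Sites of 1 cell type at the alpha locus often had a near neighbour in the other. Of the ES-only peaks 5 of 6 (83.3%) lay within 5 kb of a MEF peak, and of the MEF-only peaks 5 of 9 (55.6%) lay within 5 kb of an ES peak. Over the whole lists the values were 30.6% and 24.8%. The distance was chosen after the values were seen, and a denser window has more near neighbours of any kind.

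At the beta locus ES and MEF peaks lay far apart. The median distance to the nearest peak of the other list was 48.4 kb for ES and 59.1 kb for MEF peaks. Over the whole lists the medians for peaks without a partner were 10.9 and 15.5 kb. A sparser window has fewer near neighbours of any kind, and the part of density in these distances was not tested. The first 3 MEF peaks stood together, chr7:110853720-110854118 (score 48, percentile 48.6), chr7:110867750-110868148 (score 28, percentile 13.4) and chr7:110870245-110870643 (score 77, rank 9926, percentile 81.0), 53.9 to 70.4 kb from the window start. The nearest ES peak, which started 56.6 kb beyond the third, was chr7:110926873-110927271 (score 47, percentile 24.5), the first ES peak of the window, 127 kb from its start.

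The middle of the beta window held an overlapping pair of ES peaks. They were chr7:111021280-111021678 (score 64, rank 24953, percentile 42.7) and chr7:111021621-111022019 (score 25, rank 41338, percentile 6.37), which started 341 bp apart, 221 to 222 kb from the window start. The first was the highest-ranked ES peak of the window. The nearest MEF peak started 39.9 kb beyond the second of them.

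Beyond the ES pair, MEF peaks followed at chr7:111061528-111061926 (score 39, percentile 31.5) and chr7:111096959-111097357 (score 105, rank 4415, percentile 91.6). The latter was the highest-ranked peak of either list at the beta locus, 297 kb from the window start and 75.3 kb from the nearest ES peak. The widest peak-free gap of the window, 118 kb, separated it from the last ES peak, chr7:111215591-111215989 (score 55, rank 29255, percentile 33.1).

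Every ES peak of the beta window scored below the median of its list, and the MEF peaks did not. The 4 ES percentiles ran from 6.37 to 42.7 with a median of 28.8. The 5 MEF percentiles ran from 13.4 to 91.6 with a median of 48.6, and 2 scored above the list median. In the alpha window 7 of 13 ES peaks and 6 of 15 MEF peaks scored above it, with median percentiles of 60.1 and 39.0. Percentiles at the loci overlapped within either list. Start to start, each beta peak lay 39.9 kb or more from any peak of the other cell type. In the alpha window the farthest ES-only peak lay 27.3 kb from one. The alpha window also held more peaks per Mb, and these distances were not adjusted for density.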

How the data were processed

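The authors deposited 1 list of CTCF peaks per cell type, with a chromosome, start, end and whole-number score for each peak. The build is mm9, per the submitters' processing notes. For the aligner, peak caller, threshold, input control and pooling, nothing is stated in the labels or files. The deposited score is undefined and served only for ranks within a list. All peaks are 399 bp wide as BED intervals. Printed starts have 1 added, which assumes BED counting.

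Windows, members and lists were chosen with earlier results of these data known. Peaks named singly were all shared peaks, the 3 highest-ranked of each list in each window, the first and last, and those beside the widest gap, and others were added after their values were seen. Shared meant an overlap of at least 1 bp. The method was tested on simulated lists in which peaks of 1 list never overlapped, so overlapping peaks were not covered. Shares carry 95% Wilson intervals, and ratios 95% exact binomial intervals. These treat peaks as independent. With 1 library per cell type no p-value was computed. Tiles started at the first base of each autosome, and chromosome spans ended at the last peak. Unsequenced stretches were not left out of tiles or spans, and their effect was not tested. Promoter pairs were aligned with Biopython 1.88, and other work used Python 3.11.15, numpy 2.4.6, pandas 2.3.3 and scipy 1.17.1. Alternatives changed the overlap rule, the score threshold, merging and the window edges.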

Additional observations from a re-analysis of the deposited data

How the results depend on the processing

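Of 109 values recomputed under other settings for 16 results, 102 stayed within the counting interval (for peak numbers, 1.5 times; for median percentiles, an order-statistic interval or, with few peaks, the range) and 7 moved beyond it. Some of the 109 values could not move, such as ES peak numbers when only the MEF list was cut, or a share of 0 under a stricter overlap. Wide intervals also kept large changes inside. The median percentile of MEF alpha peaks was 39.0 in the full list and 83.3 when ranked within its higher-scoring 50%. The 102 values are therefore no measure of robustness. With the higher-scoring 50% of each list, 7 ES and 6 MEF peaks remained in the alpha window (14.3% and 16.7% shared), and the beta window held 0 ES and 2 MEF peaks. The beta values that need an ES peak, and the density ratio in ES cells, then have no value. The central 300 kb of the beta window held 2 MEF peaks. No paired analysis was possible because there is a single library of either cell type. The part of read depth, which is unknown, was not tested. Peak positions relative to single genes were not analysed here.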
